A study of Mus musculus with 18 samples.

Results

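Mutations or common variants of Myoc, Optn, Tbk1, Cyp1b1, Cav1, Cav2, Abca1, Efemp1, Atxn2 and Opa1 are linked in people to glaucoma or to other diseases of the optic nerve, and the RNA of their mouse counterparts was measured in the optic nerve head. The 10 genes were listed by name and matched by gene identifier among the 55416 genes in the tables. The rule itself holds no measured value, but it was made with earlier results of these data known. A filter on low counts was passed by 9 of the 10, among 15118 genes in all, and Myoc was the member that did not pass. None of the 9 tested genes passed the threshold in any comparison of genotype or age, and Myoc had 0 to 9 reads in a library.

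The tissue was the optic nerve head of mice, the point of exit of retinal ganglion cell axons from the eye, cut out of sections by laser capture. The labels give 3 libraries of B6.EDA+/+ mice and 5 of C57BL/6J mice at 22 months, and 5 of each at 12 months. As background, B6.EDA+/+ mice carry a fibronectin gene altered so that the extra domain A (EDA) exon is always kept in the transcript, while C57BL/6J mice, the controls, splice it variably. The labels name no treatment, no sex and no batch, and do not say whether each library came from a separate mouse, so p-values measure the spread between libraries, which may be technical in part.

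Glaucoma is the loss of retinal ganglion cells and their axons, and the optic nerve head is a known site of axon damage in it. The genes act in separate processes. Optn and Tbk1 work in selective autophagy, Cav1 and Cav2 form the coat of caveolae, Abca1 exports cholesterol, Cyp1b1 oxidises steroids and retinoids, Myoc and Efemp1 encode secreted proteins, Atxn2 binds RNA, and Opa1 fuses mitochondrial inner membranes.

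Expected counts summed to 13097498 to 18488733 in a library, with 9703 to 13048 genes at 10 or more reads. The share of fibronectin transcripts with the EDA exon was estimated from the division of reads among isoforms, not counted on the exon. That estimate did not follow the labels. At 22 months it was 0 to 12.6% in the EDA-labelled and 0 to 100% in the control-labelled libraries. At 12 months it was 0 to 58.5% in the EDA-labelled and 0 to 96.2% in the control-labelled libraries. It ran from 0 to 100% within 1 group, so it cannot decide whether the labels are right. Libraries are therefore called EDA-labelled and control-labelled. One library, EDA-labelled replicate 4 at 12 months, lacked many transcripts: of 4310 genes with a median of at least 20 CPM (counts scaled to library size) elsewhere, 563 (13.1%) stood under 5% of that median. EDA-labelled replicate 3 at 22 months had 102 of 4323 such genes (2.36%), and the other 16 libraries had at most 0.464%. The median Spearman correlations of these EDA-labelled libraries with the other libraries, across genes, were 0.698 and 0.77, against 0.811 to 0.889 for the rest. Counts of tested genes at 0 reads gave another order. EDA-labelled replicate 3 at 22 months had 3932, and EDA-labelled replicate 4 at 12 months had 2258. Control-labelled replicate 3 at 12 months had 3717, and control-labelled replicates 2 and 5 at 22 months had 3468 and 3168. The EDA-labelled pair is called sparse by the first measure. Fits without the sparse libraries therefore leave out EDA-labelled libraries only. Members were affected too, and where a member's difference printed here moved by over 1.5 times or changed sign without both sparse libraries, that value stands beside it or in the closing section. Of the cell type markers, the 10 astrocyte genes summed to 7740 to 33400 CPM and the 10 oligodendrocyte genes to 379 to 30000 CPM. The 8 tested photoreceptor genes, which mark retina, summed to 1.04 to 3360 CPM. In bulk tissue, fewer cells of a type and less RNA per cell cannot be told apart.

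The start regions of Myoc and of the caveolin pair are shown because Myoc was the member with almost no RNA, and because Cav1 lies beside Cav2 and drew its reads from separate starts. Each line is the RefSeq window on GRCm38.p6 from 250 bases before to 50 bases after an annotated start, on the + strand. Capitals mark the TATA box letters TATAAA, the CCAAT box letters CCAAT and the GC box letters GGGCGG, searched on both strands. The Myoc window is chr1:162638900-162639199, that of Cav2 is chr6:17280935-17281234, and those of Cav1 are chr6:17306085-17306384 upstream and chr6:17307390-17307689 downstream.
Myoc: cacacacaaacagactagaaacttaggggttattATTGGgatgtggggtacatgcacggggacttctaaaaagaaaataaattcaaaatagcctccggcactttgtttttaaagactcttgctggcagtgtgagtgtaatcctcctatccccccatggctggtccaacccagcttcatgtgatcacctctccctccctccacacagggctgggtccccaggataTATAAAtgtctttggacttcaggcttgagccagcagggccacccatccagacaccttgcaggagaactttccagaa
Cav2: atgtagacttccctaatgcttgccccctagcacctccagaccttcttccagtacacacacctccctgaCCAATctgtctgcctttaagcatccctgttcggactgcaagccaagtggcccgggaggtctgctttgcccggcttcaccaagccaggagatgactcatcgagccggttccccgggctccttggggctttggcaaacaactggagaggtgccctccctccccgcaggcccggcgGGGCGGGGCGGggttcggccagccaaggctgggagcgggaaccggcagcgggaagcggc
Cav1 upstream start: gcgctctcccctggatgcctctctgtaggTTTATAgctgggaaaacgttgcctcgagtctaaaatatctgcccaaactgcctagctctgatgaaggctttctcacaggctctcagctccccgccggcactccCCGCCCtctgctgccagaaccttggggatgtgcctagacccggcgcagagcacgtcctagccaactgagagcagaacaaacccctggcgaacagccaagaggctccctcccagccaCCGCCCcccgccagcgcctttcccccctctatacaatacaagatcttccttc
Cav1 downstream start: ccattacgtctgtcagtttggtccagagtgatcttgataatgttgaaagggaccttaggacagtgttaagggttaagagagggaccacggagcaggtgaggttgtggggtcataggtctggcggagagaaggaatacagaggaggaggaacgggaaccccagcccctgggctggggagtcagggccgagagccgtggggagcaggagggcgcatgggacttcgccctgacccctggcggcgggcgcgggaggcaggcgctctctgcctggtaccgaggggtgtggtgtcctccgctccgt
The Myoc window held 1 TATAAA and 1 ATTGG, the reverse of CCAAT, and 2 CG dinucleotides. The Cav2 window held 1 CCAAT, 2 overlapping GGGCGG and 16 CG. The upstream Cav1 window held 1 TATAAA, read on the other strand as TTTATA, 2 GGGCGG read as CCGCCC, and 13 CG. The downstream Cav1 window, set on the start of isoform Cav1-202, held none of the 3 motifs and 16 CG. Isoform Cav1-203 begins between the upstream and the downstream window, so its own start region is not shown. Over 32851 mouse windows of the same length, TATAAA occurred in 13.6%, CCAAT in 37.4% and GGGCGG in 35.7%, and the median number of CG was 7. A match is a description of the letters and not a bound site.

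Myoc encodes myocilin, a secreted olfactomedin-domain protein made in large amounts by the trabecular meshwork at the front of the eye. It was nearly absent from these libraries. Its expected counts were 0, 2 and 0 in EDA-labelled and 1, 0, 0, 8 and 3 in control-labelled libraries at 22 months. At 12 months they were 9, 3, 0, 1 and 0 in EDA-labelled and 0, 0, 0, 9 and 1 in control-labelled libraries. A read was found in 9 of 18 libraries, spread over every group, and the groups overlapped. In a library with 0 reads, a count of 0 allows up to 3 reads, which is 0.162 to 0.229 CPM over the depths here, before scaling, and this limit covers counting error only. The median Myoc level was 0.025 TPM, a unit that divides reads by transcript length and by the library's sum, and 8.59% of tested genes had a lower median. Myoc did not enter the tests, and a difference between its groups was not detectable at this depth.

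By TPM, the length-scaled unit that allows genes to be compared, Atxn2 was highest with a median of 137 over the 18 libraries. Cav1 followed at 90.4, Abca1 at 74.3 and Optn at 47.05 TPM. Lower levels were those of Opa1 at 19.3, Tbk1 at 10.0, Cyp1b1 at 6.01, Cav2 at 4.39 and Efemp1 at 3.84 TPM. Within a library Abca1 exceeded Optn in 18 of 18 libraries, Optn exceeded Opa1 in 17 and Opa1 exceeded Tbk1 in 15. Other neighbours did not keep their order: Atxn2 exceeded Cav1 in 12 of 18 libraries, Cav1 exceeded Abca1 in 11, Tbk1 exceeded Cyp1b1 in 12, Cyp1b1 exceeded Cav2 in 9 and Cav2 exceeded Efemp1 in 11.

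The places of Atxn2 and Cav1 rested on short isoforms. The estimated reads of Atxn2 went mostly to Atxn2-220, a 1434-nucleotide coding transcript annotated as incomplete at its coding end, which took 78.2% of them over all libraries, while the full-length Atxn2-201 took 7.22%. Its share was 79.8% to 90.3% in EDA-labelled and 69.5% to 90.7% in control-labelled libraries at 22 months, and 71.7% to 82.5% in EDA-labelled and 59.6% to 79.8% in control-labelled libraries at 12 months, with overlap at both ages. All other Atxn2 isoforms summed to a median of 31.1 TPM. Cav1-203, with 613 nucleotides, took 30.1% of Cav1 reads but 53.7% of Cav1 TPM. With isoforms of at least 1500 nucleotides alone, a cut-off set after these values were seen, Abca1 led at 74.3 TPM, ahead of Optn at 39.7, Cav1 at 19.5, Opa1 at 19.3 and Atxn2 at 9.29 TPM. The division of reads among isoforms is an estimate, so the order is given under both measures.

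**Figure D1:**
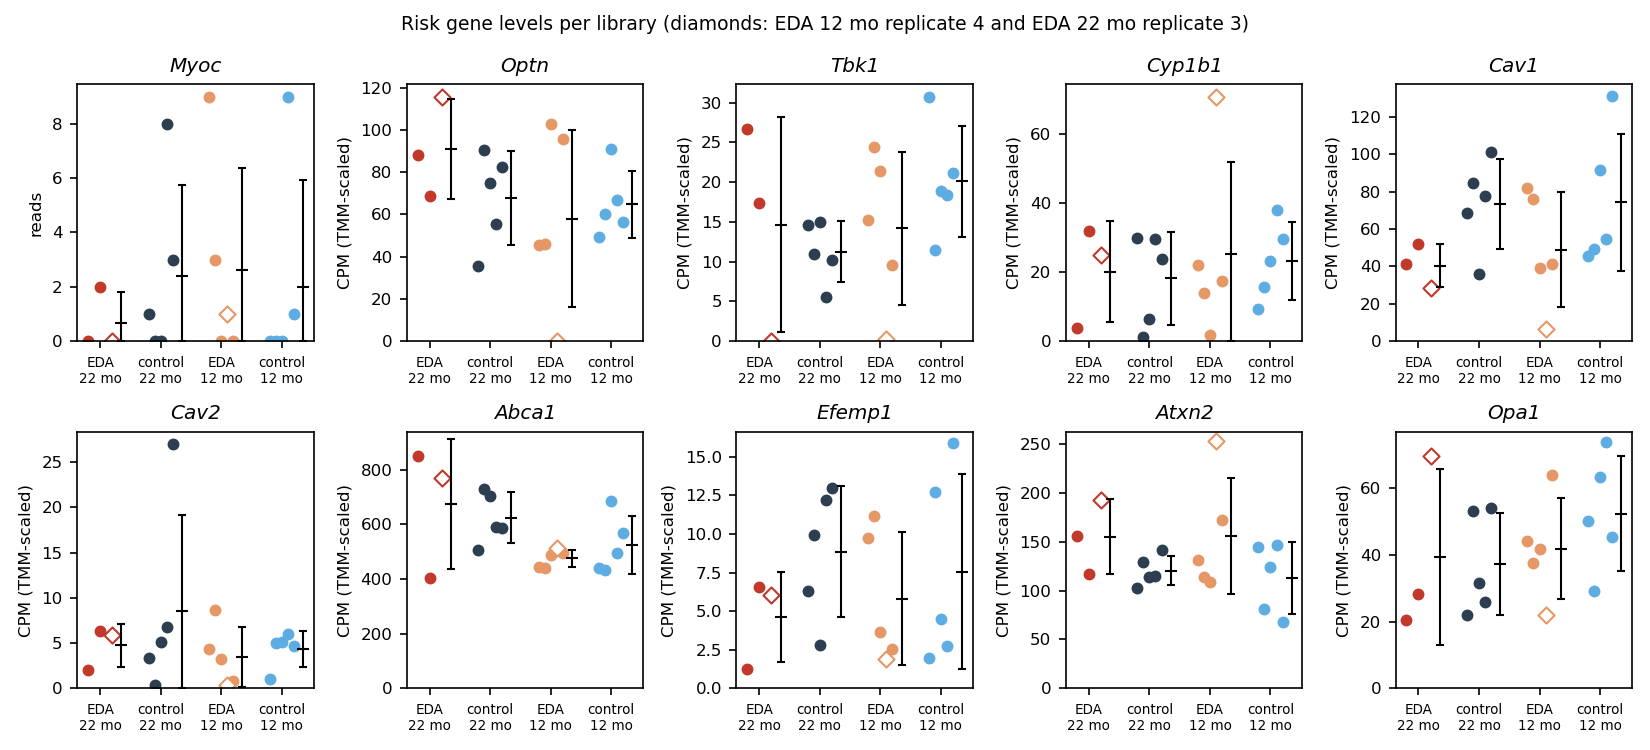
Levels of the 10 genes in each library, as reads for Myoc and as CPM scaled by the trimmed mean of M values (TMM) for the others, with the group mean and SD (bars end at 0). Columns run EDA-labelled 22 months, control-labelled 22 months, EDA-labelled 12 months, control-labelled 12 months. Diamonds mark EDA-labelled replicate 4 at 12 months, where Optn and Tbk1 were near 0, and EDA-labelled replicate 3 at 22 months, where Tbk1 had 0 reads.

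Genotype and age were compared in 1 model over all 18 libraries with edgeR's quasi-likelihood test and Benjamini-Hochberg adjustment over the 15118 genes. The 4 pairwise comparisons share libraries, so their results are set side by side and are not independent. At 22 months 0 of 9 members passed an adjusted p of 0.05 between EDA-labelled and control-labelled libraries, as did 0% of all genes, and 0 members had an unadjusted p under 0.05, against 3.96% of all genes. At 12 months 0 of 9 passed, against 0% of all genes, and 0 had an unadjusted p under 0.05, against 4.56%. Between 22 and 12 months 0 of 9 passed in EDA-labelled and 0 of 9 in control-labelled libraries, against 0% of all genes in each. There 0 members had an unadjusted p under 0.05, against 4.98% of all genes for EDA-labelled and 3.51% for control-labelled samples. The interaction of genotype and age gave 0 of 9, against 0% of all genes, and 0 members at an unadjusted p under 0.05, against 4.02%. DESeq2 also called 0 members, while it called 35 and 22 genes between genotypes at 22 and 12 months, 43 and 23 between ages in EDA-labelled and control-labelled libraries, and 37 for the interaction.

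The fitted differences had no common direction. Between genotypes at 22 months 6 of 9 members were above 0 with a median log2 fold change of 0.112, against -0.0741 and 46.0% above 0 over all genes. At 12 months 2 of 9 were above 0 with a median of -0.316, against -0.00973 and 49.5%. Between ages 4 of 9 were above 0 with a median of -0.00892 in EDA-labelled libraries, against -0.0592 and 46.9% over all genes. In control-labelled libraries 5 of 9 were above 0 between ages with a median of 0.0661, against 0.02 and 51.6%. No member had groups that stood apart without overlap in any of the 4 comparisons. Of the 36 intervals of the 9 genes in the pairwise comparisons, 5 lay wholly between -1 and 1 on the log2 scale, 3 of Abca1 and 2 of Atxn2, and the other 31 reached a 2-fold difference in at least 1 direction. Over all genes the share without overlap was 2.75% and 1.26% between genotypes at 22 and 12 months, and 4.0% and 0.556% between ages in EDA-labelled and control-labelled libraries.

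**Figure D2:**
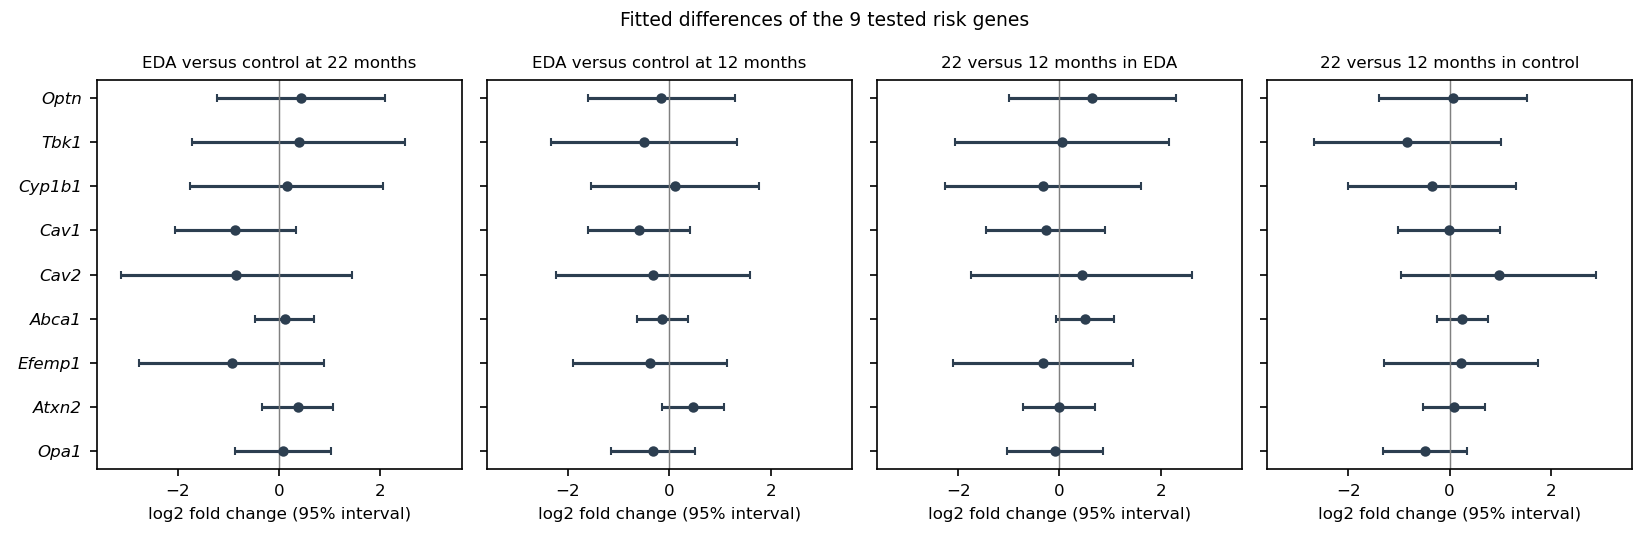
Fitted log2 fold changes of the 9 tested genes from edgeR's quasi-likelihood model, with 95% intervals, in the 4 pairwise comparisons of 3 to 5 libraries a group. Every interval crosses 0, and those of Abca1 are the narrowest, with a highest bound of 1.08 for 22 against 12 months in EDA-labelled libraries.

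Optn encodes optineurin, a receptor that ties ubiquitinated cargo to the autophagy machinery. Optn at 22 months measured 88.3, 69.0 and 116 CPM in EDA-labelled libraries, against 35.7, 90.7, 74.9, 55.3 and 82.3 CPM in control-labelled libraries. For Optn the log2 fold change was 0.43 ± 0.80 (SE), with a 95% interval of -1.23 to 2.08, and 0.21 without both sparse libraries. At 12 months Optn was 45.6, 45.8, 103, 0.126 and 95.6 CPM in EDA-labelled libraries, against 49.2, 60.0, 91.0, 66.9 and 56.5 CPM in control-labelled libraries. The value of 0.126 CPM is replicate 4, where 2 reads were counted against a median of 69.0 CPM elsewhere, and the groups otherwise covered the same range. The log2 fold change at 12 months was -0.16 ± 0.70, and 0.18 without both sparse EDA-labelled libraries. Over all libraries Optn-202 and Optn-201 took 56.1% and 40.8% of its reads, with 0 to 75.1% and 0 to 63.0% in single libraries.

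Tbk1 encodes TANK-binding kinase 1, which phosphorylates optineurin and also signals in innate immunity. Tbk1 at 22 months measured 26.7, 17.3 and 0 CPM in EDA-labelled libraries, against 14.6, 11, 15, 5.56 and 10.2 CPM in control-labelled libraries. Both EDA-labelled libraries with reads were above every control-labelled library, and the third, the sparse replicate 3, had 0. For Tbk1 the log2 fold change was 0.38 ± 1.01, with an interval of -1.72 to 2.48, and 0.95 without both sparse libraries, at an unadjusted p of 0.0617 in edgeR. At 12 months Tbk1 was 15.2, 24.4, 21.4, 0.315 and 9.54 CPM in EDA-labelled libraries, against 30.8, 11.4, 18.9, 18.3 and 21.1 CPM in control-labelled libraries, a log2 fold change of -0.50 ± 0.88, and -0.17 without both sparse libraries. Its 5 reads in replicate 4 made the low value of 0.315 CPM. Between ages in control-labelled libraries, 0 of 5 libraries at 22 months were above the median at 12 months. That log2 fold change was -0.84 ± 0.89 and kept that size, -0.82, without the sparse libraries, where edgeR's unadjusted p was 0.044. It did not pass the adjusted threshold in either fit.

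Cav1 encodes caveolin-1, the main coat protein of caveolae, the small pits of the plasma membrane. Cav1 at 22 months measured 41, 51.8 and 28.6 CPM in EDA-labelled libraries, against 68.7, 84.6, 36.2, 77.8 and 101 CPM in control-labelled libraries. All 3 EDA-labelled libraries were below the control median, and control replicate 3, at 36.2 CPM, lay among them. The means were 40.5 ± 11.6 CPM (SD, n = 3) in EDA-labelled and 73.7 ± 24.1 CPM (SD, n = 5) in control-labelled libraries. For Cav1 the log2 fold change was -0.86 ± 0.57, with an interval of -2.06 to 0.33 and an unadjusted p of 0.148 in edgeR. With a covariate for ENSMUSG00000119584, a gene that took 3.26% to 32.85% of reads in a library, it was -0.27 (p of 0.656 in edgeR). At 22 months that gene took 4.81% to 17.27% in EDA-labelled and 10.72% to 32.85% in control-labelled libraries. The covariate ran partly with genotype, so this fit cannot fully separate them. With the ratio of Xist to Y-chromosome genes, whose balance between the groups is not given here, the log2 fold change was -0.51. Fitted on the compared groups alone it was -0.87, at an unadjusted p of 0.0448 in edgeR that did not pass the adjustment. With 1 library left out it ran from -1.08 to -0.66. At 12 months Cav1 was 81.8, 75.9, 39.2, 6.24 and 41.4 CPM in EDA-labelled libraries, against 45.3, 49.1, 91.5, 54.8 and 131 CPM in control-labelled libraries. The log2 fold change was -0.61 ± 0.48, and -0.31 without the sparse libraries, of which replicate 4 held the 6.24 CPM. Between ages the Cav1 log2 fold change was -0.27 ± 0.56 in EDA-labelled libraries and -0.01 ± 0.48 in control-labelled libraries. Isoforms that begin near the upstream start, whose sequence is given above, took a median of 38.1% of Cav1 reads. That share was 19.9% to 56.6% in EDA-labelled and 2.76% to 42.5% in control-labelled libraries at 22 months, and 11% to 55.9% in EDA-labelled and 34.4% to 49.9% in control-labelled libraries at 12 months, so the groups overlapped.

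**Figure D3:**
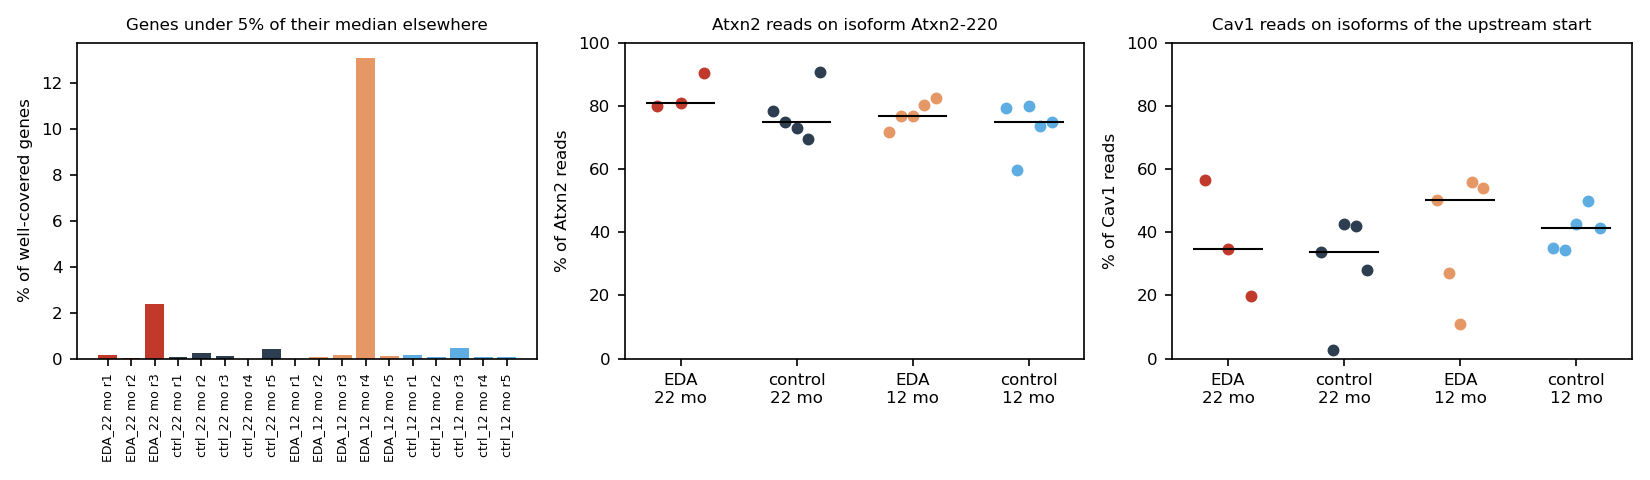
Share of well-covered genes that stood under 5% of their median elsewhere, in each library (left), share of Atxn2 reads on isoform Atxn2-220 (middle) and share of Cav1 reads on isoforms of the upstream start (right), in percent, with lines at group medians. EDA-labelled replicate 4 at 12 months reaches 13.1% on the left, and the isoform shares overlap between groups.

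Cav2 encodes caveolin-2, which forms oligomers with caveolin-1, and lies beside Cav1 on chromosome 6. Cav2 measured 2, 6.33 and 5.89 CPM in EDA-labelled and 3.31, 0.349, 5.14, 6.76 and 27 CPM in control-labelled libraries at 22 months. Its 12-month levels were 4.37, 8.61, 3.29, 0.378 and 0.833 CPM in EDA-labelled and 0.981, 4.97, 5.10, 6.00 and 4.70 CPM in control-labelled libraries. The 27 CPM of control replicate 5 at 22 months was the highest of the 18 libraries. The log2 fold change was -0.84 ± 1.09 between genotypes at 22 months and -0.32 ± 0.92 at 12 months. Leaving out 1 library at a time moved the 22-month value between -1.15 and 0.28, positive without control-labelled replicate 5, and the 12-month value between -0.97 without EDA-labelled replicate 2 and -0.03 without EDA-labelled replicate 4. Without both sparse libraries the 12-month value was -0.02.

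Abca1 encodes the transporter that loads cholesterol onto apolipoproteins, and glial cells are known to use it. Its fitted differences had the smallest errors of the 9 tested genes. Abca1 at 22 months measured 849, 402 and 771 CPM in EDA-labelled libraries, against 506, 731, 705, 591 and 586 CPM in control-labelled libraries. At 12 months Abca1 was 444, 442, 488, 512 and 495 CPM in EDA-labelled libraries, against 441, 433, 686, 494 and 567.5 CPM in control-labelled libraries. The EDA-labelled libraries at 22 months lay on both sides of the narrow range of those at 12 months. Between genotypes the log2 fold change was 0.11 ± 0.28 at 22 months, and -0.14 ± 0.24 at 12 months with an interval of -0.64 to 0.36. Between ages it was 0.50 ± 0.28 in EDA-labelled libraries, with an interval of -0.07 to 1.08 and an unadjusted p of 0.0833 in edgeR, the lowest of any member. That value was 0.30 without EDA-labelled replicate 1 at 22 months and 0.76 without replicate 2, where edgeR's unadjusted p was 0.0135 and the adjusted p 0.442. DESeq2 gave an unadjusted p of 0.0482 and an adjusted p of 0.667 with all libraries. In control-labelled libraries it was 0.25 ± 0.24 between ages, with 5 of 5 libraries at 22 months above the 12-month median. Abca1-201 took nearly all of its reads.

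Cyp1b1 encodes a cytochrome P450 whose loss causes congenital glaucoma in people. Cyp1b1 at 22 months measured 3.76, 31.8 and 24.9 CPM in EDA-labelled libraries, against 29.8, 1.14, 6.52, 29.7 and 23.7 CPM in control-labelled libraries. At 12 months Cyp1b1 was 21.9, 13.9, 1.67, 70.7 and 17.5 CPM in EDA-labelled libraries, against 9.23, 15.7, 23.3, 38 and 29.4 CPM in control-labelled libraries. Within every group the highest library was over 4 times the lowest, and the 70.7 CPM came from sparse replicate 4. For Cyp1b1 the log2 fold change was 0.15 ± 0.91 at 22 months and 0.12 ± 0.79 at 12 months, and -0.75 at 12 months without the sparse libraries.

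Efemp1 encodes fibulin-3, a secreted matrix glycoprotein. Efemp1 at 22 months measured 1.27, 6.53 and 6.06 CPM in EDA-labelled libraries, against 6.30, 9.96, 2.82, 12.2 and 13 CPM in control-labelled libraries. At 12 months Efemp1 was 9.72, 11.2, 3.65, 1.89 and 2.56 CPM in EDA-labelled libraries, against 1.96, 12.7, 4.50, 2.76 and 15.9 CPM in control-labelled libraries. At 22 months 0 of 3 EDA-labelled libraries were above the control median, with an overlap of the groups. For Efemp1 the log2 fold change was -0.94 ± 0.87 at 22 months, with an interval of -2.76 to 0.88, and -0.38 ± 0.73 at 12 months. The 22-month value was -0.49 without EDA-labelled replicate 1, -0.21 after adding the ENSMUSG00000119584 share to the model and -1.43 by voom with quality weights. That share ran partly with genotype at 22 months, as given for Cav1. The 12-month value was -0.16 without both sparse libraries.

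Atxn2 encodes ataxin-2, an RNA-binding protein of stress granules. Atxn2 at 22 months measured 155, 117 and 193 CPM in EDA-labelled libraries, against 103, 130, 114, 115 and 142 CPM in control-labelled libraries. At 12 months Atxn2 was 132, 114, 109, 253 and 172 CPM in EDA-labelled libraries, against 145, 81.7, 124, 147 and 67.6 CPM in control-labelled libraries. The highest value of each EDA-labelled group came from the sparse library. For Atxn2 the log2 fold change was 0.36 ± 0.33 at 22 months and 0.47 ± 0.29 at 12 months, with an unadjusted p of 0.128 in edgeR, and became 0.17 and 0.24 without the sparse libraries. Sh2b3 overlaps the end of Atxn2 on the opposite strand, at chr5:121815488-121816493 on GRCm38, with a mean of 592 reads of its own. A library without strand cannot tell the RNA of the shared stretch apart. Of the Atxn2 isoforms only Atxn2-205 reaches that stretch, and it was assigned 0.0111% of Atxn2 reads.

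Opa1 encodes a dynamin-like GTPase of the mitochondrial inner membrane, and its loss of function causes dominant optic atrophy. Opa1 at 22 months measured 20.3, 28.3 and 69.4 CPM in EDA-labelled libraries, against 22.0, 53.0, 31.4, 25.7 and 54.1 CPM in control-labelled libraries. At 12 months Opa1 was 44.1, 37.6, 41.7, 21.8 and 63.8 CPM in EDA-labelled libraries, against 50.1, 29, 63.2, 73.8 and 45.2 CPM in control-labelled libraries. The highest EDA-labelled value at 22 months and the lowest at 12 months were both sparse libraries. With all libraries the difference between ages on the log2 scale was -0.09 ± 0.46 for EDA-labelled and -0.49 ± 0.40 for control-labelled samples. Without the sparse ones it was -0.96 in EDA-labelled libraries, with an unadjusted p of 0.0418 in edgeR that did not pass the adjustment. Between genotypes it was 0.08 ± 0.46 at 22 months and -0.32 ± 0.40 at 12 months, and without the sparse libraries -0.62 at 22 months and -0.15 at 12 months. Over all libraries Opa1-201 took 63.8% of its reads, Opa1-207 21.5% and Opa1-206 10.2%. In single libraries the estimated share ran from 3.96% to 98.6% for Opa1-201 and from 0 to 80.7% for Opa1-207.

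Genes that work with the members were set in 10 lists, which held 161 genes, of which 142 were tested. No list had a gene past the adjusted threshold in any comparison by edgeR. Over the 142 genes, 7 had an unadjusted p under 0.05 between genotypes at 22 months (4.93%, against 3.96% of all genes) and 4 at 12 months (2.82%, against 4.56%). Between ages there were 7 in EDA-labelled libraries (4.93%, against 4.98%) and 2 in control-labelled libraries (1.41%, against 3.51%). The medians over the 142 genes were 0.0685 and 0.0522 between genotypes at 22 and 12 months, and -0.0456 and -0.0378 between ages in EDA-labelled and control-labelled libraries.

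Among the partners of Optn and Tbk1, 20 of 21 genes were tested. Pink1, the kinase that marks damaged mitochondria for autophagy, ranged from 298 to 1550 CPM in EDA-labelled libraries, against 213 to 525 CPM in control-labelled libraries at 22 months. Its log2 fold change was 1.40 ± 0.50, at an adjusted p of 1.0 in edgeR. Nbr1, another autophagy receptor, had a log2 fold change of -1.26 ± 0.56 between genotypes at 12 months. It was 0.567 to 50.5 CPM (median 33.2) in EDA-labelled and 55.9 to 87.5 CPM in control-labelled libraries, without overlap (as in 1.26% of all genes). The EDA-labelled group holds sparse replicate 4, and a value for Nbr1 without the sparse libraries is not given. Tbkbp1, an adaptor of Tbk1, had 1.15 ± 0.51 between ages in control-labelled libraries. Of the caveola genes, 9 of 11 were tested. Cavin2, a coat protein beside caveolin, was 33.8 to 50.7 CPM at 22 months, against 13.8 to 32 CPM at 12 months in EDA-labelled libraries, without overlap (as in 4.0% of all genes), at a log2 fold change of 1.12 ± 0.42. Ror1, a receptor that scaffolds caveolae, was 32.5 to 197 CPM at 22 months, against 10.1 to 58.2 CPM at 12 months, at 1.68 ± 0.55. The adjusted p of both was 0.961 in edgeR.

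All 17 sterol genes beside Abca1 were tested, and among those averaging 2 log2 CPM or more the lowest p was that of Abcg1, a partner in cholesterol export, with a log2 fold change of 1.11 ± 0.61 between genotypes at 12 months. Its range was 34.4 to 186 CPM in EDA-labelled libraries, against 24.5 to 65.6 CPM in control-labelled libraries. All 11 fibulins and partners of Efemp1 were tested, and Fbln1, a fibulin of basement membranes and elastic fibres, was at 1.47 ± 0.64 between ages in EDA-labelled libraries. Among the aryl hydrocarbon receptor and retinoid genes around Cyp1b1, 11 of 16 were tested and 0 passed the adjusted threshold. Between genotypes 1 gene at each age had an unadjusted p under 0.05 in edgeR, the low-level Nqo1 at 22 months (p of 0.0293) and Crabp2 at 12 months (p of 0.0356), both named after their values were seen, and between ages 0 did. Ahr itself is the receptor known to induce Cyp1b1. In EDA-labelled libraries Ahr was 0 to 3.16 CPM at 22 months, against 5.11 to 10.2 CPM at 12 months. Those ranges did not overlap (as in 4.0% of all genes), and the unadjusted p was 0.0964 in edgeR. The stress granule genes around Atxn2 had 15 of 15 tested and 0 at an unadjusted p under 0.05 in any comparison.

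Of the mitochondrial dynamics genes beside Opa1, 14 of 16 were tested. Mfn1, a fusion GTPase of the outer membrane, was 20.9 to 50.9 CPM at 22 months, against 52.5 to 113 CPM at 12 months in EDA-labelled libraries. These ranges did not overlap (as in 4.0% of all genes), and the log2 fold change was -1.14 ± 0.49, at an adjusted p of 0.961 in edgeR. Other inherited optic neuropathy genes had 12 of 13 tested, with Nr2f1, an orphan nuclear receptor, at 1.13 ± 0.47 between ages in EDA-labelled libraries. Other glaucoma genes had 24 of 30 tested. Loxl1, which crosslinks elastin and is linked to exfoliation glaucoma, was 23.0 to 40.5 CPM in EDA-labelled libraries, against 5.33 to 19.1 CPM in control-labelled libraries at 22 months, at 1.16 ± 0.55 and an adjusted p of 1.0 in edgeR. Pax6, a transcription factor of eye development, was 20.5 to 43.5 CPM at 22 months, against 9.08 to 18.4 CPM at 12 months in EDA-labelled libraries, at 1.06 ± 0.41. The olfactomedin-domain relatives of Myoc had 10 of 12 tested. Olfml2b was 4.83 to 5.27 CPM in EDA-labelled libraries, against 8.77 to 25.1 CPM in control-labelled libraries at 22 months, at -1.45 ± 0.63 and an adjusted p of 1.0 in edgeR. The ranges of Loxl1 and Olfml2b did not overlap (as in 2.75% of all genes), nor did those of Pax6 (as in 4.0%). Genes of the lists were named for a small p, which favours ranges that stand apart.

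Whether members varied together was read from log2 CPM less the group mean over the 18 libraries. Each of the 36 pairs of the 9 tested genes had 100000 permutations over all libraries. These made no allowance for the group means removed, so permutation p-values here and below may be too small. After Benjamini-Hochberg adjustment 0 pairs passed by Pearson or by Spearman. Cav1 and Cav2 gave a Pearson r of 0.485 (permutation p = 0.0454, adjusted 0.164) and a Spearman rho of 0.519 (p = 0.0295, adjusted 0.183). Without the 2 libraries farthest from the Cav1 median r was 0.379. The highest r was that of Optn and Cav1, 0.747 (adjusted permutation p = 0.0737), and it was 0.35 without the 2 farthest libraries and 0.287 without the sparse ones.

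Members were also set against 8 cell type marker lists, which gave 72 pairs. By Pearson 2 passed the adjusted threshold, and by Spearman 0. The same permutations were used, so the adjusted p-values of these 2 may be too small, and the 2 are not taken as established. Tbk1 and the 10 microglia and macrophage genes had r = 0.728 (permutation p = 0.00059, adjusted 0.036) and rho = 0.577 (p = 0.0138, adjusted 0.198). Without the 2 farthest libraries r was 0.626, and without the sparse libraries 0.475. The list summed to 877 to 1160 CPM in EDA-labelled and 850 to 2170 CPM in control-labelled libraries at 22 months, and to 543 to 1830 CPM in EDA-labelled and 655 to 1260 CPM in control-labelled libraries at 12 months. At least 1 of its markers was at 0 reads in 7 libraries. Among them, Aif1 and Mrc1 were at 0 in both sparse EDA-labelled libraries and in control-labelled replicate 3 at 12 months. Atxn2 and the 9 tested fibroblast genes had r = -0.712 (permutation p = 0.001, adjusted 0.036) and rho = -0.707 (p = 0.00145, adjusted 0.104), and r = -0.609 without the 2 farthest libraries. On log2(TPM + 1) that r was -0.147. The fibroblast list summed to 620 to 1070 CPM in EDA-labelled and 579 to 789 CPM in control-labelled libraries at 22 months, and 431 to 850 CPM in EDA-labelled and 633 to 1020 CPM in control-labelled libraries at 12 months, and Ogn was at 0 reads in 4 libraries. Whether the cell content of a section had a part in these levels was not tested.

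**Figure D4:**
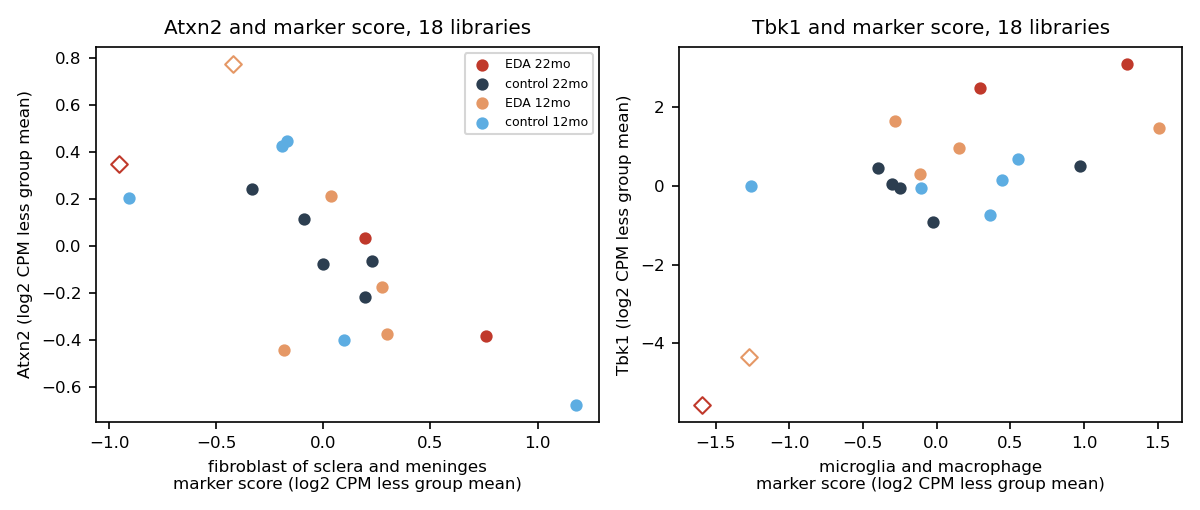
Atxn2 against the fibroblast marker score (left) and Tbk1 against the microglia and macrophage marker score (right), both as log2 CPM less the group mean, in 18 libraries. Diamonds are the sparse EDA-labelled libraries, which hold the lowest Tbk1 values, and r over all libraries is -0.712 on the left and 0.728 on the right.

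The genes most like each member, by Pearson r of the same values over 18 libraries among 7079 genes (7080 for Cav2), are given as a description. Optn was most like Ppp2r2a, with r = 0.99 and 0.949 without the sparse libraries. Tbk1 was most like Usp16 with 0.972 and 0.889, Cav1 most like Slc39a10 with 0.917 and 0.798, and Atxn2 most like Nsfl1c with 0.954 and 0.934. Cyp1b1 was most like Greb1l at 0.929 and 0.919, Cav2 like Tpmt at 0.858 and 0.835, and Abca1 like Icam1 at 0.836 and 0.849. Efemp1 was most like Actg1 at 0.789 and 0.811, and Opa1 like Araf at 0.855 and 0.777. All points share the same libraries, with their differences in depth and in transcripts lost, and nothing about shared function was tested.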

How the data were processed

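RNA was measured in 18 libraries of laser-captured mouse optic nerve head. Low-input RNA was copied with SMART-Seq v4 and made into Nextera XT libraries, which keep no strand, per the labels' protocols. STAR did the alignment and RSEM the quantification, also per the labels. The genome build GRCm39 is named per the submitters' processing notes, while versions of tools were not given in the sources used here. The deposited values are the authors' expected counts, of which 3.59% were not whole and all were rounded for tests, and the authors' TPM. Depth was 13097498 to 18488733 counts, and intervals for counts of 0 cover counting error only. Symbols came from GENCODE M21 on GRCm38, another build, which matched 52083 of 55416 identifiers and gave the isoform types, lengths and coordinates. Start sequences are RefSeq windows on GRCm38.p6.

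Groups came from the sample titles, with replicate numbers given by accession order and no pairing. The members and lists were chosen with earlier results of these data known. Genes were kept with filterByExpr, scaled by TMM and fitted in edgeR 4.0.16 with 4 group means and robust dispersions. Contrasts were tested two-sided with Benjamini-Hochberg adjustment over 15118 genes and a threshold of 0.05. CPM are TMM-scaled, and correlations used log2 CPM with a prior count of 1, two-sided. Each log2 fold change of a named gene from the main fit carries its standard error or a 95% interval, and those from alternative fits carry neither. All members were named, and from each list up to 3 genes averaging 2 log2 CPM or more with the smallest unadjusted p, of which those described are given as not passing. Alternatives were DESeq2 1.42.0, limma 3.58.1 with voom quality weights, other size factors, no filter, covariates, the compared groups alone, each library left out, and both sparse EDA-labelled libraries left out. The scripts were tested on simulated counts with R 4.3.3 and Python 3.11.15.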

Additional observations from a re-analysis of the deposited data

Results flagged for a closer look

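Of 27 sets of 5 libraries (a member in a group), 4 held a library far from the others, and chance flags about 1 in 20 sets. In EDA-labelled replicate 4 at 12 months, Optn was at -2.37 log2 CPM with a gap to the next library of 0.871 of the group's range, Tbk1 was at -1.39 with a gap of 0.775, and Cav1 was at 2.66 with a gap of 0.713. That library also lacked 13.1% of well-covered genes. Cav2 was at 0.068 log2 CPM in control-labelled replicate 1 at 12 months, with a gap of 0.862, and the cause was not tested.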

How the results depend on the processing

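Of 45 member log2 fold changes (9 genes, 5 contrasts), 0 passed the adjusted threshold in any alternative, and 28 changed sign in at least 1. The values that follow have the opposite sign to the reported ones, with genotype as EDA-labelled over control-labelled and age as 22 over 12 months. Size factors by relative log expression gave, for age in EDA, Atxn2 0.0074. No low-count filter gave, for interaction, Cyp1b1 -0.00080. DESeq2 gave, for age in EDA, Atxn2 0.0073. Voom with quality weights gave, for genotype at 22 months, Cyp1b1 -0.57 and Opa1 -0.20, for genotype at 12 months, Cyp1b1 -0.91, Cav2 0.0070 and Efemp1 0.26, for age in EDA, Tbk1 -0.34, Cav2 -0.17 and Atxn2 0.15, for age in control, Optn -0.043, for interaction, Atxn2 0.0067 and Opa1 -0.027. A covariate for the ratio of Xist to Y-chromosome genes gave, for age in EDA, Atxn2 0.060, for age in control, Optn -0.061 and Efemp1 -0.23, for interaction, Cav1 0.15 and Cav2 0.37. A covariate for the share of ENSMUSG00000119584, which takes 3.26% to 32.85% of reads, gave, for genotype at 22 months, Cyp1b1 -0.32, Abca1 -0.13, Atxn2 -0.22 and Opa1 -0.23, for genotype at 12 months, Cyp1b1 -0.73 and Efemp1 0.21, for age in EDA, Cyp1b1 0.068, Cav1 0.0048 and Efemp1 0.028, for interaction, Cav1 0.012. That share ran lower in EDA-labelled libraries at both ages, with overlap, so the covariate is not fully separate from genotype. Leaving out both sparse EDA-labelled libraries, chosen after seeing the data, gave, for genotype at 22 months, Cyp1b1 -0.043, Abca1 -0.0035 and Opa1 -0.62, for genotype at 12 months, Optn 0.18 and Cyp1b1 -0.75, for age in EDA, Cyp1b1 0.37, Cav2 -0.049 and Atxn2 0.038, for interaction, Opa1 -0.48. With each library left out in turn the sign of these differences changed. For genotype at 22 months, Tbk1 ran from -0.37 to 0.97, Cyp1b1 ran from -0.35 to 0.64, Cav2 ran from -1.15 to 0.28, Abca1 ran from -0.089 to 0.38 and Opa1 ran from -0.61 to 0.39. For genotype at 12 months, Optn ran from -0.47 to 0.16, Cyp1b1 ran from -0.75 to 0.42, Abca1 ran from -0.20 to 0.0035 and Efemp1 ran from -0.76 to 0.082. For age in EDA, Tbk1 ran from -0.71 to 0.63, Cyp1b1 ran from -0.82 to 0.55, Efemp1 ran from -0.67 to 0.12, Atxn2 ran from -0.20 to 0.24 and Opa1 ran from -0.78 to 0.22. For age in control, Optn ran from -0.061 to 0.23, Cav1 ran from -0.16 to 0.29, Cav2 ran from -0.16 to 1.28, Efemp1 ran from -0.017 to 0.69 and Atxn2 ran from -0.046 to 0.20. For interaction, Cyp1b1 ran from -0.47 to 0.90, Cav1 ran from -0.56 to 0.0057, Cav2 ran from -0.84 to 0.60, Atxn2 ran from -0.29 to 0.14 and Opa1 ran from -0.29 to 0.71. Over all genes, edgeR called 0, and DESeq2 called 35 for genotype at 22 months, 22 at 12 months, 43 for age in EDA-labelled libraries, 23 for age in control-labelled libraries and 37 for the interaction. Voom called 1 at 22 months (Mesp2), 2 at 12 months (Senp3 and Actn1) and 1 for the interaction (Pja1), named after their values were seen. At 12 months 0 to 1 genes were called with 1 library left out, Actn1 without EDA-labelled replicate 4, and 1 (Actn1) without both sparse libraries. Correlated member pairs numbered 0, and 2 on log2(TPM + 1) and 2 with group means kept, while correlated member and marker pairs numbered 2, and 0 under each of those. The cause of these changes was not tested. Myoc, at 0 to 9 reads, is limited by depth. No paired analysis was possible, because the titles give each library a number of its own but name no pairs.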
